A study of Mus musculus with 48 samples.

Results

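The genes described here are the nuclear genes for respiratory complexes III, IV and V in a mouse cell line with ribosomal protein defects. They were taken from the count table by symbol, as mixed-case names that begin with Uqcr, Uqcc, Cox4 to Cox8, Cox10 to Cox19 or Atp5. This gave 54 of 55487 genes, after 2 pseudogenes were left out by their suffix. Complex III had 11 of them (8 subunits and 3 assembly factors). Complex V had 17 (5 subunits of the F1 part, 3 genes for subunit c and 9 other stalk or membrane subunits). Complex IV had 26, made up of 10 ubiquitous subunits, 9 assembly factors and 7 isoforms of restricted expression. After a filter on low counts 49 were tested in RNA and 50 in footprints, and counts below refer to those tested. Untested in RNA were Cox4i2, Cox6b2, Cox7b2, Cox8b and Cox8c, of which Cox4i2 was tested in footprints.

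Complex III passes electrons from ubiquinol to cytochrome c, complex IV passes them from cytochrome c to oxygen, and complex V, the ATP synthase, uses the proton gradient that results to make ATP. Each complex joins a few subunits made inside the mitochondrion with many that are encoded in the nucleus, translated on cytosolic ribosomes and imported. Assembly factors insert haem and copper, place the mitochondrial subunits and join the parts, and most are not kept in the finished enzyme. Cox7a2l, which links complexes III and IV, is counted here with the assembly factors of complex IV. Several complex IV subunits exist as paired isoforms, one present in most tissues and the other in muscle, testis or lung.

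Ba/F3, an interleukin 3-dependent pro-B line of the mouse, was edited with CRISPR-Cas9 and cloned. Per the labels there were 8 genotypes. Besides WT, 2 carried a mutation in the small ribosomal subunit protein Rps15 (P131S or H137Y). The other 5 affected large-subunit proteins and were Rpl10 R98S, Rpl22-/-, Rpl22+/-, Rpl11+/- and Rpl5+/-. The genotype labels give the 3 point mutations on both alleles, while the RNA-seq titles for P131S name it once. Every genotype, WT included, had 3 clones, and the lysate of each clone was divided, 1 portion for RNA-seq of poly(A) RNA and 1 for ribosome footprints of 28 to 30 nt after RNase I. All cultures had 10% fetal calf serum, 1 ng/ml interleukin 3 and 1 min of 0.1 mg/ml cycloheximide before harvest. The series' title ties the Rps15 mutations to chronic lymphocytic leukaemia and asks how they act on translation and transcription. Clones may differ from each other apart from the edit. The p-values of the main fits rest on a spread between clones shared over all 8 genotypes, not on that of the 2 genotypes compared.

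Library totals were 13029073 to 38258559 counts in RNA and 15598994 to 72044439 in footprints. Rpl5 RNA was 1535 to 1589 CPM in Rpl5+/- against 2283 to 2338 in WT, and Rpl11 RNA was 1008 to 1150 CPM in Rpl11+/- against 1665 to 1686 in WT (CPM, counts scaled to a fixed total per library). Rpl22 footprints were 274 and 317 CPM in 2 Rpl22-/- clones but 1545 CPM in clone 30, within the 1429 to 1596 CPM of the Rpl22+/- clones, so this clone goes against its label. Rps15 RNA was 1433 to 1455 CPM in WT, 907, 1825 and 1935 CPM in P131S and 817, 875 and 1829 CPM in H137Y. Of 15 pro-B and B lineage markers 2 exceeded 1 CPM in WT RNA, with Ebf1, Rag1 and Rag2 at 0, while the 3 interleukin 3 receptor genes summed to 876 to 1039 CPM. The summed neutrophil and monocyte markers were highest in the Rps15 genotypes and are given beside the results below.

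In wild-type cells the number of footprints per RNA differed widely between members. The footprint to RNA ratio (footprint CPM divided by RNA CPM of the same clone) had a median log2 value of 0.15 over the 49 members tested at both levels and of -0.34 over 11979 genes. It was -0.11 over 11 complex III members, -0.03 over 21 of complex IV and 0.34 over 17 of complex V. RNA counts may include untranslated sequence that bears no footprints, so this ratio depends on transcript structure as well as on ribosome density.

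The highest ratios belonged to Cox5a, a subunit on the matrix side of complex IV, with 2.86, 3.26 and 3.56 in the 3 WT clones. Next came Cox6b1, a subunit that faces the intermembrane space, with 2.76, 2.82 and 3.9, and Atp5c1, the central rotor shaft of the ATP synthase, with 2.36, 2.58 and 2.61. Cox5a and Cox6b1 overlapped, and Atp5c1 lay below both. Among members with footprints in all 3 WT clones, which leaves out Atp5g2 and Cox6a2, the lowest ratios belonged to Cox7a2l, which links complexes III and IV into supercomplexes, with 0.115, 0.135 and 0.153, and to Cox17, the chaperone that carries copper to complex IV, with 0.122, 0.138 and 0.142. Cox7c, a small transmembrane subunit, followed with 0.213, 0.263 and 0.297, above both.

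Atp5g2, 1 of the 3 genes for subunit c, had RNA of 318.5, 325 and 326 CPM in WT but footprints of 0, 0 and 0.401 CPM. Its footprints were at or under 1.4 CPM in every library except 1 Rpl22+/- clone with 13.8 CPM, so they were not readable from the table. The deposited counts are estimates, and values that are not whole numbers can arise where reads are divided between features. Such values made up 67.4% of the members' footprint values against 36.7% over all genes tested, and 32.7% against 29.6% in RNA. For 23 of 54 members no footprint library had a whole value, so their footprint levels are uncertain, and Atp5g2 RNA was not whole in any library.

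**Figure D1:**
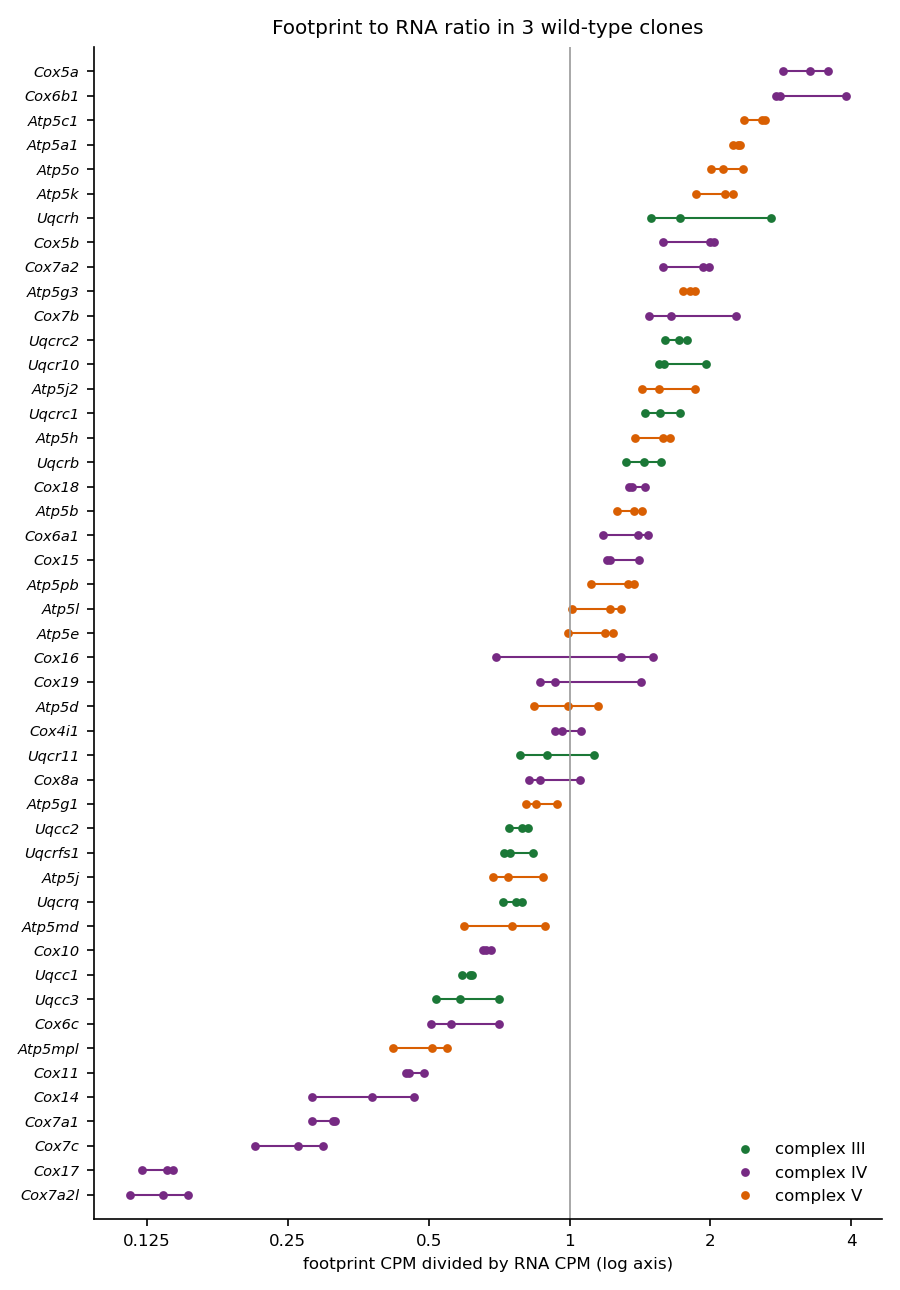
Footprint CPM divided by RNA CPM in wild-type Ba/F3 cells for the 47 members tested at both levels with footprints in all 3 clones, on a log axis. Points are clones, lines join the lowest and highest, and colour gives the complex, with Cox5a at the top (2.86 to 3.56) and Cox7a2l at the bottom (0.115 to 0.153).

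RNA of most of these genes rose in Rps15 P131S. A gene was called higher or lower where edgeR's adjusted p, corrected over all genes tested, was under 0.05. On this rule 40 of 49 members rose in P131S against WT and 1 fell, while 23.7% of all 12814 genes rose and 23.4% fell. In H137Y, the other mutation of the same protein, 6 members rose and 3 fell, with 21% and 20% of all genes. The median log2 change of the members was 0.40 in P131S and 0.04 in H137Y, against -0.01 and 0.01 over all genes. A direct comparison gave 40 members higher in P131S than in H137Y and 1 lower, with a median of 0.37, against 12.6% of all genes in each direction and a median of -0.02. The values are shares of each library, so more RNA per cell and more cells with the RNA cannot be told apart.

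In H137Y the count of members called in RNA was 14 without clone 6 and 5 without WT clone 1 or 3, with medians of 0.08, 0.01 and 0.03. Of all genes 41.4%, 34.1% and 33.1% were called in these fits, in either direction. The direct comparison rests on the fit to all genotypes. With only P131S and H137Y in the fit, 2 of 48 members (Atp5g3 and Uqcrq) were called higher and 0 lower, with 126 and 252 of 12069 genes, and the members' median was again 0.37. The members' median SD of log2 CPM between clones was 0.10 in P131S and 0.11 in H137Y, while it was 0.05 to 0.08 in the other 6 genotypes. In P131S against WT the fit to those 2 genotypes alone called 40 members higher and 1 lower, as did the fit to all. That fit called 2627 of 11917 genes higher and 2553 lower with the 2 genotypes alone.

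Per clone, the members' median log2 ratio to the WT mean was 0.31, 0.37 and 0.50 in P131S and -0.12, 0.07 and 0.12 in H137Y. The highest clone of the other 6 genotypes was at 0.17, below all 3 P131S clones. Between 44 and 47 of the 49 members lay above the WT mean in each P131S clone. This count did not set P131S apart, as it was 40 to 47 in Rpl22-/- clones, 17 to 45 in Rpl22+/- clones and 10 to 41 in WT clones. The members together held 1.35% to 1.48% of all RNA counts in P131S, 1.03% to 1.23% in H137Y and 1.2% to 1.23% in WT.

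Neutrophil and monocyte markers differed between genotypes too. In WT 5 of 12 markers exceeded 1 CPM in RNA and their sum was 45.3 to 188 CPM; in P131S these were 9 of 12 and 581 to 3338 CPM, and in H137Y 10 of 12 and 620.2 to 3731 CPM. Csf3r was at 0 in all 3 of these genotypes, and Elane was at most 0.201 CPM. In WT, P131S and H137Y Prtn3 had means of 36, 41.3 and 38.3 CPM and Csf1r of 0.247, 0.0613 and 1.26 CPM. The largest means in P131S were those of Ngp, S100a8 and S100a9 (408.9, 539.2 and 755.6 CPM). The neutrophil and monocyte sum also lay apart from WT in Rpl5+/- (194.8 to 475.7 CPM) and Rpl10 R98S (28.7 to 32 CPM). Of 9 erythroid and mast cell markers 7 were tested, of which 2 rose and 3 fell in P131S (median log2 change -0.53) and 4 rose and 0 fell in H137Y (median 0.64). Their sum was 132 to 168 CPM in WT, 159.9 to 351 in P131S and 272 to 565 in H137Y. In P131S the mast cell gene Cpa3 held most of it (97 to 239 CPM, against 15.8 to 46.3 in WT), while Gata1 was at 37.6 to 44.5 CPM against 56.1 to 66.4 in WT. In P131S the clones with neutrophil and monocyte sums of 581, 1535 and 3338 CPM had members' medians of 0.50, 0.37 and 0.31. In H137Y the clones with 620.2, 1113 and 3731 CPM had 0.12, 0.07 and -0.12. The part of these markers in the results was not tested.

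**Figure D2:**
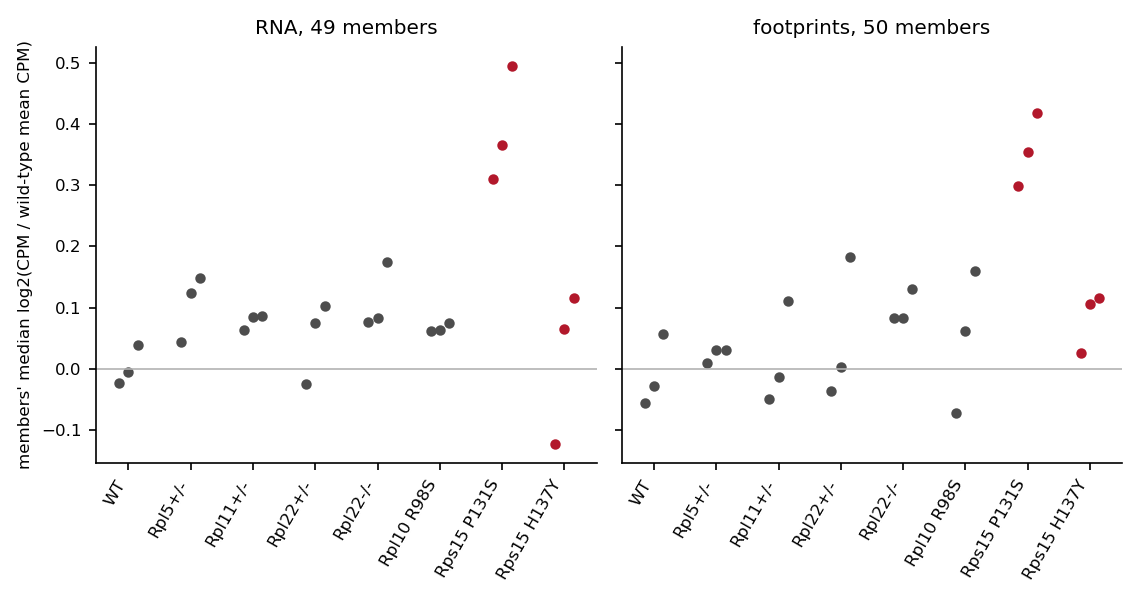
Median log2 of CPM over the wild-type mean CPM, across the 49 members tested in RNA (left) and the 50 tested in footprints (right), 1 point per clone and 3 clones per genotype, Rps15 clones in red. The P131S clones sit at 0.31 to 0.50 in RNA and 0.30 to 0.42 in footprints, above every other clone.

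Few members were called in the large-subunit genotypes. In Rpl11+/- RNA 3 of 49 members rose and 0 fell, while 11.8% of all genes were called in either direction. Values in brackets with ± are log2 changes with their standard error. The 3 genes were Cox8a, a small subunit of complex IV (0.23 ± 0.07 SE, adjusted p 0.0339), Cox7a2l (0.21 ± 0.06 SE, adjusted p 0.0294) and Uqcrh, the hinge protein of complex III (0.18 ± 0.05 SE, adjusted p 0.034). All 3 calls were lost without WT clone 1, WT clone 3, Rpl11+/- clone 22 or Rpl11+/- clone 406, and without the filter on low counts. That of Cox8a was lost without any 1 of the 6 clones, and that of Cox7a2l also without clone 414.

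In Rpl5+/-, Rpl22+/-, Rpl22-/- and Rpl10 R98S RNA edgeR called 0 members, with 1.04%, 3.9%, 5.27% and 12.9% of all genes called. At an unadjusted p under 0.05 there were 13, 2, 8 and 8 of 49 members, and 14.8%, 15.5%, 18% and 28.3% of all genes. limma voom called 0 in each, and DESeq2 2, 0, 3 and 0, with 3.02%, 5.53%, 7.05% and 15.6% of all genes. Fits to the 2 genotypes alone called 15 members higher in Rpl5+/-, 5 in Rpl22-/- and 14 in R98S (2 lower). The same fits called 930 of 11814 genes higher in Rpl5+/-, 532 of 11928 in Rpl22-/- and 2219 of 11917 in R98S (1997 lower). The members' medians were 0.11, 0.05, 0.11 and 0.07. Leaving out Rpl22-/- clone 30 called 0 as well, with 2.66% of all genes.

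In footprints 0 of 50 members were called in any of the 5 large-subunit genotypes, where 0.0123% (Rpl5+/-), 0.074% (Rpl11+/-), 0.253% (Rpl22+/-), 0.105% (Rpl22-/-) and 1.62% (R98S) of 16217 genes were. At an unadjusted p under 0.05 there were 1, 4, 10, 5 and 10 of 50 members, and 4.11%, 9.87%, 13.7%, 6.74% and 13.6% of all genes. DESeq2 called 2 members in Rpl22+/- and 5 in R98S (2.5% and 4.55% of all genes) and 0 in the other 3, and limma voom 0 in each.

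All 8 complex III subunits rose in P131S RNA. Uqcr11, a small subunit at the edge of the complex, had 150.5, 159.8 and 171 CPM in WT, 236, 276 and 289 in P131S and 135, 181 and 201 in H137Y. The P131S clones lay above all WT and H137Y clones (0.74 ± 0.11 SE, adjusted p 1.33e-05 against WT, and 0.63 against H137Y, adjusted p 0.000227). Uqcrq, a small subunit next to cytochrome b, had 243, 255.5 and 256 CPM in WT, 359, 378 and 392 in P131S and 212, 239.6 and 244 in H137Y. The P131S clones were again apart from both (0.58 ± 0.08 SE, adjusted p 9.54e-06 against WT, and 0.70 against H137Y, adjusted p 5.58e-06). The other subunits rose by 0.19 (Uqcrc2, a core protein) to 0.58 (Uqcr10) on the log2 scale. Among the assembly factors of cytochrome b, Uqcc1 and Uqcc3 rose (0.25 and 0.29) and Uqcc2 had 0.09 (adjusted p 0.467). In H137Y 0 of 11 complex III members were called in RNA.

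Of the 10 ubiquitous complex IV subunits all rose in P131S RNA, from 0.32 (Cox6b1) to 0.57 (Cox6c) on the log2 scale. Only Cox4i1, the subunit through which ATP is known to inhibit the enzyme, was also called in H137Y (0.20, adjusted p 0.00904). Its clones had 477.5, 485 and 487 CPM in WT, 620.5, 644 and 675 in P131S and 530.2, 567 and 568 in H137Y, and the 3 groups did not overlap.

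Of the 9 assembly factors of complex IV 4 rose and 0 fell in P131S RNA. Cox10, which makes the haem of complex IV together with Cox15, rose by 0.40, as did the copper factors Cox17 (0.53) and Cox19 (0.29) and Cox16 (0.42), which acts on the mitochondrial subunit Cox2. Cox15 had -0.04 (adjusted p 0.704) in P131S and fell in H137Y (-0.23 ± 0.07 SE, adjusted p 0.0127). The call of Cox15 was lost without WT clone 2. Cox19 rose in H137Y too (0.25 ± 0.09 SE, adjusted p 0.023), a call lost without WT clone 1 or 3 or H137Y clone 6. Cox11, Cox14 and Cox18 were not called in either genotype.

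Cox7a2l was the 1 member lower in P131S than in H137Y. Its RNA was 175, 176 and 187 CPM in WT, 186, 196 and 206.5 in P131S and 205, 225.5 and 235 in H137Y. The H137Y clones lay above the WT clones (0.31 ± 0.06 SE, adjusted p 0.000378), and the 2 mutants overlapped slightly (-0.17, adjusted p 0.0361, a call lost without P131S clone 20 or 24 or H137Y clone 2 or 16).

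The isoforms of restricted expression were near the limit of detection. Cox6b2, Cox7b2, Cox8b and Cox8c were at 0 in RNA of all WT clones and at most 0.103 CPM in RNA of any clone. Cox4i2, the isoform linked to low oxygen in lung, had 0.113, 0.142 and 0.274 CPM of RNA in WT and 0.101, 0.237 and 0.539 CPM of footprints. Cox7a1, the muscle partner of Cox7a2, had 1.17, 1.27 and 1.49 CPM in WT and 1.87, 2.5 and 3.17 in P131S (0.94, adjusted p 0.0709). Cox6a2, the muscle partner of Cox6a1, was at 0.711, 0.904 and 0.995 CPM in WT, 0.0792, 0.114 and 0.134 in P131S and 0.116, 0.154 and 0.249 in H137Y. It fell in P131S (-2.93 ± 0.65 SE, adjusted p 0.000879) and also in H137Y (-2.32 ± 0.60 SE, adjusted p 0.00391), at under 1 CPM throughout. In Rpl10 R98S its clones were at 0.172, 0.195 and 0.462 CPM, also below WT, without a call (adjusted p 0.0732).

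**Figure D3:**
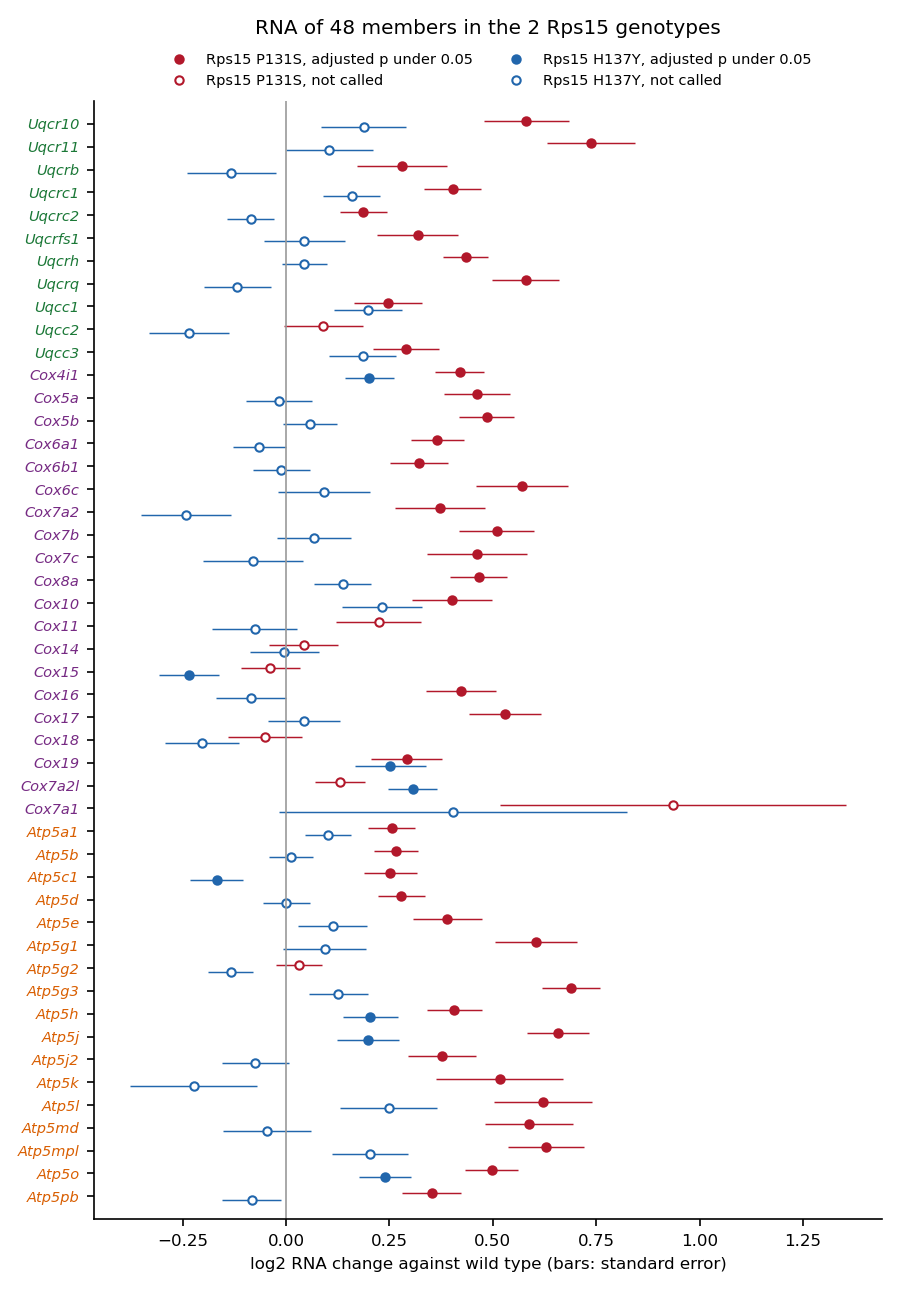
Log2 RNA change against wild type in Rps15 P131S (red) and Rps15 H137Y (blue) for 48 of the 49 members tested, with standard errors; filled points passed the adjusted p of 0.05, and the text colour gives complex III (green), IV (purple) or V (orange). Cox6a2 (-2.93 and -2.32) lies outside the range and is not drawn; nearly all red points are filled and lie to the right of the blue ones.

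In complex V 16 of 17 members rose in P131S RNA and 17 of 17 were higher than in H137Y. The 5 subunits of the F1 part, where ATP is made, all rose. They were alpha (Atp5a1, 0.26), beta (Atp5b, 0.27), gamma (Atp5c1, 0.25), delta (Atp5d, 0.28) and epsilon (Atp5e, 0.39). Atp5b, which carries the catalytic sites, had 1449.6, 1461 and 1505 CPM in WT, 1645, 1758.5 and 1901 in P131S and 1475.5, 1488 and 1489.5 in H137Y. Atp5c1 differed in sign between the Rps15 genotypes, with 330.2, 337.5 and 340.4 CPM in WT, 369.8, 392 and 439 in P131S and 289, 297 and 311 in H137Y. All 3 groups were apart, although its fall in H137Y (-0.17 ± 0.06 SE, adjusted p 0.0404) was lost without any 1 of the 3 WT clones or H137Y clone 2 or 16.

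The 9 stalk and membrane subunits all rose in P131S RNA, with a median of 0.52. Atp5j, subunit F6 of the peripheral stalk, had 191, 200.3 and 212 CPM in WT, 287.5, 311 and 353 in P131S and 214.5, 233 and 245 in H137Y (0.66 ± 0.07 SE, adjusted p 9.53e-07 in P131S). Atp5mpl, a small membrane protein of the complex, had 115, 134 and 141 CPM in WT and 190.3, 201 and 212 in P131S (0.63 ± 0.09 SE, adjusted p 1.53e-05). In both genes the lowest P131S clone lay above the highest WT clone. Atp5k and Atp5md, which lie where 2 synthases meet, had the largest differences of complex V between the Rps15 genotypes (0.74 and 0.64 in P131S against H137Y, adjusted p 0.00177 and 0.000221). In H137Y Atp5h, Atp5j and Atp5o of the peripheral stalk rose (0.20, 0.20 and 0.24), the call of Atp5h being lost without WT clone 1 or 3 or H137Y clone 6.

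Subunit c forms the rotor ring of the ATP synthase, and its 3 genes encode the same mature protein behind different import peptides. In P131S RNA 2 of them rose and 1 did not pass the test. Atp5g3 had 279, 285 and 296 CPM in WT, 427, 445 and 513 in P131S and 289, 314 and 336 in H137Y (0.69 ± 0.07 SE, adjusted p 3.16e-07 in P131S). Atp5g1 had 132, 138 and 147 CPM in WT, 192, 192 and 249.8 in P131S and 127, 153 and 165 in H137Y (0.60 ± 0.10 SE, adjusted p 5.35e-05). Both genes were higher in each P131S clone than in any other clone of the 8 genotypes. Atp5g2 had 318.5, 325 and 326 CPM in WT, 311, 335.5 and 345 in P131S and 282, 299 and 303 in H137Y, so that WT and P131S overlapped (0.03 ± 0.06 SE, adjusted p 0.678). It was the 1 complex V member not called in P131S RNA. Its difference between P131S and H137Y was 0.17 (adjusted p 0.0311). The differences between the 3 genes were not tested.

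Because these 3 genes give 1 protein but were not all called, the 250 bases before their start sites are shown from RefSeq (GRCm38.p6, all on the minus strand of the genome, printed 5′ to 3′ towards the gene). Capitals mark matches on either strand to 6 motifs, which were GCATGCGC for NRF1, CCGGAAG for the ETS family, AAGATGGC for YY1, GGGCGG for Sp1, the letters CCAAT and, for the box of that name, TATAAA.
Atp5g1, chr11:96075632-96075881: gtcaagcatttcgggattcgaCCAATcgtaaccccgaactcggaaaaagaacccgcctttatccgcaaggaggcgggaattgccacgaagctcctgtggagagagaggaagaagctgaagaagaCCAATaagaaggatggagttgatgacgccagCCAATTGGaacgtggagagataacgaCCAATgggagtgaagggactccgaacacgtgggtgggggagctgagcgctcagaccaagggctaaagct
Atp5g3, chr2:73911327-73911576: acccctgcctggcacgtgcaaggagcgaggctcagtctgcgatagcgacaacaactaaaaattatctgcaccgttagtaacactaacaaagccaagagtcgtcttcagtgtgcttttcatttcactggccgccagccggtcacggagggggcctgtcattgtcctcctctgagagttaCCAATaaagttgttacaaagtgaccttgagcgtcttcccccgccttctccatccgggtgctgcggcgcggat
Atp5g2, chr15:102671048-102671297: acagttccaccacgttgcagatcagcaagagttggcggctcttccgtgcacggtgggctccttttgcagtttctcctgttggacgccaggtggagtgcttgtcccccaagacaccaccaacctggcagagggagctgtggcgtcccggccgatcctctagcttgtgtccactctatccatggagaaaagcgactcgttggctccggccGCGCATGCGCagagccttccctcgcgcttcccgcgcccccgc
The Atp5g1 window held CCAAT 4 times on the printed strand and 1 time on the other, where 2 matches overlap. Atp5g3 held CCAAT 1 time, and Atp5g2 held no CCAAT but the NRF1 letters in both directions, overlapping each other. Of 32851 windows of this length 33.8% held CCAAT, 2.26% NRF1, 6.91% ETS, 1.56% YY1, 32.7% Sp1 and 12.4% TATA. The Atp5g3 window lies wholly, and the Atp5g1 window by 63 bases, within the span that RefSeq gives the gene, which there begins upstream of the start site used. A match is a description of the letters and says nothing of binding. Promoters were matched for 42 of 54 members, which is 77.8% and too few for motif shares over the members.

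**Figure D4:**
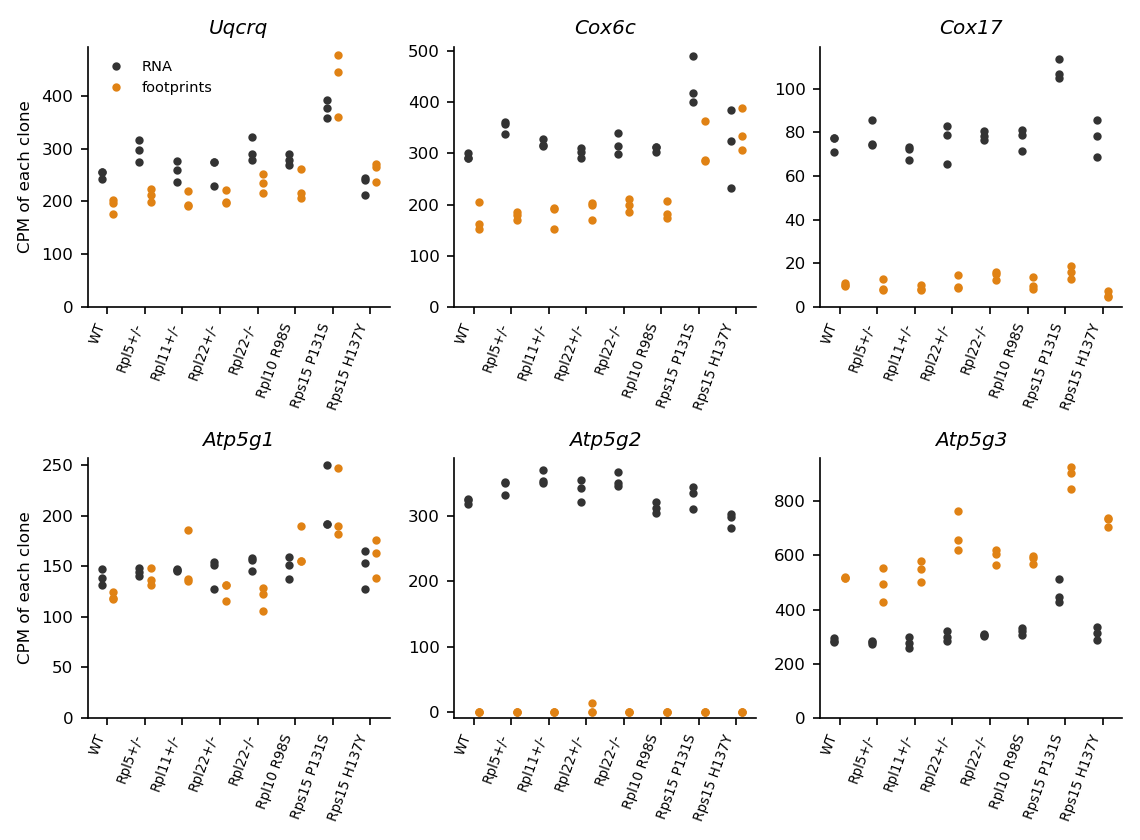
CPM of each clone in RNA (dark) and footprints (orange) for 6 members across the 8 genotypes, 3 clones each, with a linear axis per gene. Atp5g1 and Atp5g3 RNA is highest in P131S while Atp5g2 RNA is not, Uqcrq footprints are highest in P131S, Cox6c footprints are raised in both Rps15 genotypes, and Cox17 footprints are lowest in H137Y.

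Footprints rose in the same direction as RNA in P131S, with fewer calls. In P131S 19 of 50 members rose and 0 fell, against 8.42% and 8.28% of all genes, and the members' median was 0.39, against -0.04 over all genes. They were 12 of 17 complex V members, 4 of 11 in complex III and 3 of 22 in complex IV. The per-clone medians were 0.30, 0.35 and 0.42 in P131S, and the next highest clone, of Rpl22+/-, was at 0.18. Leaving out P131S clone 20, whose marker sum was the lowest of the genotype, called 10 members, and the fit to these 2 genotypes alone called 12. Of all genes 9.37% and 15.7% were called in these fits, in either direction.

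In H137Y 6 of 50 members rose and 1 fell in footprints, against 5.22% and 6.44% of all genes, and the members' median was 0.09. The count was 3 without WT clone 2 or H137Y clone 2, where 6.9% and 8.34% of all genes were called in either direction. Between P131S and H137Y 6 members were higher and 0 lower, against 2.23% and 1.94%. A fit to these 2 genotypes alone called 0, with 0.243% of all genes. Leaving out P131S clone 20 or H137Y clone 2 or 6 called 3, with 1.91%, 2.44% and 2.53% of all genes. The 6 were Uqcrq, Uqcrc1, Uqcc2, Cox17, Atp5b and Atp5k.

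Uqcrq had the largest footprint change among called members in P131S. Its footprints were 176, 197.5 and 202 CPM in WT, 360.0, 446 and 478 in P131S and 236, 264.5 and 271 in H137Y. The 3 genotypes did not overlap (1.16 ± 0.11 SE, adjusted p 4.32e-06 in P131S; 0.42 ± 0.11 SE, adjusted p 0.0184 in H137Y). Uqcr11 footprints were 133.5, 143 and 170.3 CPM in WT and 228, 275 and 333 in P131S (0.90 ± 0.23 SE, adjusted p 0.00892), a call lost without P131S clone 20. Uqcrc1, a core protein of complex III, was higher in P131S than in H137Y (0.51, adjusted p 0.00861), as was Uqcc2 (0.56, adjusted p 0.0173, lost without P131S clone 20 or H137Y clone 2 or 6).

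Among complex IV members Cox6c, a small transmembrane subunit, had footprints of 153, 162 and 206 CPM in WT, 285.5, 287.5 and 363 in P131S and 306, 334 and 389 in H137Y. Both Rps15 genotypes lay above WT (0.85 ± 0.13 SE, adjusted p 0.000263 in P131S; 0.98 ± 0.13 SE, adjusted p 9.73e-05 in H137Y). The 6 Rps15 clones (285.5 to 389 CPM) lay above all 18 others (152 to 210.2 CPM), which held for 0.956% of all genes in footprints, with 0.857% below. In RNA the H137Y clones were at 233, 324 and 384 CPM, on both sides of the WT values of 290.2, 290.3 and 301.5.

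Cox17 footprints were low in all libraries, with 9.46, 10.1 and 10.7 CPM in WT, 12.7, 16 and 18.7 in P131S and 4.26, 5.04 and 7.35 in H137Y. The H137Y clones lay below the WT and P131S clones (-0.87 ± 0.26 SE, adjusted p 0.0366 against WT). The fall was lost without any 1 of the 3 WT clones or H137Y clone 2 or 16. The difference from P131S (1.52 ± 0.27 SE, adjusted p 0.00245) held without any 1 of the 6 clones. Cox5b and Cox4i1 rose in P131S (0.45 and 0.39), and Cox5b also rose in H137Y (0.49, adjusted p 0.00885).

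In complex V the largest footprint rise in P131S was that of Atp5e, the epsilon subunit, with 259.6, 303 and 306 CPM in WT, 462.5, 505 and 666 in P131S and 363, 393.5 and 447 in H137Y (0.91 ± 0.16 SE, adjusted p 0.000564). Atp5a1 and Atp5b rose by 0.26 and 0.42, while Atp5c1 (0.20, adjusted p 0.3) and Atp5d (0.26, adjusted p 0.238) were not called. Atp5g3 footprints were 516, 517 and 519.8 CPM in WT, 845, 906 and 927 in P131S and 704.5, 735 and 737 in H137Y, and rose in both (0.79 and 0.49). Atp5g1 footprints rose in P131S (0.78, adjusted p 0.000601).

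H137Y raised footprints of 2 peripheral stalk subunits. Atp5j had 145.5, 148 and 168 CPM in WT, 233.5, 234 and 296 in P131S and 202, 221 and 246 in H137Y (0.54 ± 0.14 SE, adjusted p 0.0181 in H137Y, lost without WT clone 2 or 3 or H137Y clone 2). Atp5pb, subunit b, had 399, 457 and 473 CPM in WT, 542.5, 587 and 689.8 in P131S and 534, 576 and 798 in H137Y (0.52 ± 0.13 SE, adjusted p 0.0136 in H137Y, lost without WT clone 2 or H137Y clone 2).

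Few members changed in translational efficiency, tested as the interaction of assay and genotype. This test ignored that the RNA and footprint libraries of a clone are paired, and a paired fit, which called further members, is given below. In P131S 1 of 50 rose and 0 fell, against 0.881% and 2.26% of 16568 genes. In H137Y 3 rose and 1 fell, against 0.61% and 2.15%. Between P131S and H137Y 0 were called, against 0.453% higher and 0.229% lower, with 13 members and 11.4% of all genes at an unadjusted p under 0.05. DESeq2 called 3 members there, with 1.89% of all genes, and limma voom called 1, with 0.604%. In H137Y the count was 1 without WT clone 2 or 3 and 2 without WT clone 1 or H137Y clone 2. The shares of all genes were 1.07%, 1.12%, 1.07% and 2.18% in that order. Fits to 2 genotypes alone called 0 in P131S and 0 in H137Y, with 2.84% and 1.87% of all genes. The members' medians were 0.02 in both Rps15 genotypes.

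Uqcrq rose in both, as its footprint to RNA ratio was 0.722 to 0.791 in WT, 0.918 to 1.33 in P131S and 0.966 to 1.25 in H137Y (0.56 ± 0.14 SE, adjusted p 0.0181 in P131S; 0.52 ± 0.14 SE, adjusted p 0.0319 in H137Y). Leaving out WT clone 1 or P131S clone 63 ended the P131S call, and leaving out any 1 WT clone or H137Y clone 6 or 16 ended that in H137Y. Cox6c had ratios of 0.506 to 0.708 in WT and 0.947 to 1.44 in H137Y (0.88 ± 0.17 SE, adjusted p 0.00263), a change still called with any 1 of the 6 clones left out. In P131S its ratio was 0.585 to 0.907 (log2 change 0.26, adjusted p 0.575).

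Atp5pb rose in H137Y, from 1.11 to 1.37 in WT to 1.64 to 2.39 (0.59 ± 0.15 SE, adjusted p 0.0215), a call that ended without WT clone 2 or 3 or H137Y clone 2. Cox17 fell in H137Y, from 0.122 to 0.142 in WT to 0.0497 to 0.107 (-0.94 ± 0.27 SE, adjusted p 0.0451), which was lost without any 1 WT clone or H137Y clone 2 or 16. Footprint values were not whole in 24 of 24 libraries for Cox17 and Atp5pb, in 21 for Cox6c and in 16 for Uqcrq, and the part of shared reads in these ratios was not tested.

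With the clone as a block in a paired fit, all 5 of these calls remained and others were added. More of all genes were called in it too, in either direction. The shares were 4.86% in P131S, 3.83% in H137Y, 0.471% in R98S and 0.936% between P131S and H137Y. Cox8a was then lower in P131S (-0.53 without the block, -0.54 with it, adjusted p 0.0226) and in Rpl10 R98S (-0.66 without, -0.66 with, adjusted p 0.026). Its footprints were 563, 598 and 717 CPM in WT, 368, 416 and 466 in R98S and 495, 612 and 714 in P131S. Cox5b was then higher in H137Y (0.40, adjusted p 0.0444). Between P131S and H137Y the paired fit called Cox17 higher (1.05, adjusted p 0.0247) and Cox6c lower (-0.65, adjusted p 0.0477).

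In translational efficiency the unpaired test called 0 members in Rpl5+/-, Rpl11+/-, Rpl22+/-, Rpl22-/- or Rpl10 R98S, where it called 0%, 0%, 0.00604%, 0.0121% and 0.217% of all genes. At an unadjusted p under 0.05 there were 3, 2, 8, 3 and 9 of 50 members, and 2.72%, 3.84%, 7.97%, 5.02% and 7.52% of all genes. limma voom called 0 in each, and DESeq2 called 1 in R98S (0.996% of all genes) and 0 in the others.

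**Figure D5:**
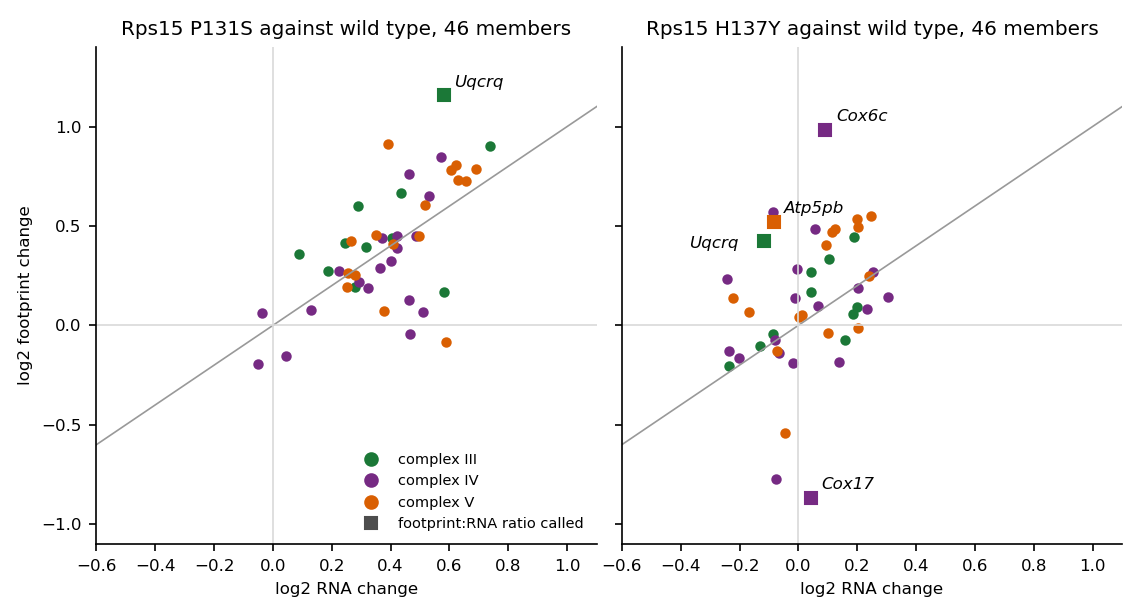
Log2 footprint change against log2 RNA change for Rps15 P131S (left) and Rps15 H137Y (right) against wild type, for the 46 members tested at both levels with at least 1 CPM of footprints in WT; the line marks equal change, colour gives the complex and squares are members whose footprint to RNA ratio was called. Most P131S points lie above 0 on both axes, and Uqcrq, Cox6c, Atp5pb and Cox17 are the squares in H137Y.

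Uqcc1 was the 1 member whose RNA was higher in all 6 Rps15 clones than in all 18 others, with 31.5 to 39.4 CPM against 23.9 to 31.1 CPM. In P131S it was called (0.25, adjusted p 0.0176) and in H137Y it was not (0.20, adjusted p 0.0585). Of all genes 2.97% lay above and 2.95% below in this way in RNA.

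The 6 subunits of these complexes that the mitochondrial genome encodes rose in part in both Rps15 genotypes. In RNA 4 of 6 rose in each, with 0 lower: mt-Cytb of complex III (1.11 in P131S and 1.60 in H137Y), mt-Co3 of complex IV (0.62 and 0.65) and mt-Atp6 and mt-Atp8 of complex V (0.67 and 0.67; 0.44 and 0.78). The shares of all genes in RNA were 23.7% higher and 23.4% lower in P131S, and 21% and 20% in H137Y. Between the Rps15 genotypes mt-Cytb was lower in P131S (-0.49, adjusted p 0.0207). In footprints mt-Cytb rose in P131S (0.83, adjusted p 0.0236), and 0 of 6 were called in H137Y. These RNAs are translated on mitochondrial ribosomes, not on those that hold Rps15.

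Other factors of these complexes outside the naming rule were mixed. Of 37 tested in RNA, 17 rose and 4 fell in P131S, with a median of 0.22, while 4 rose and 13 fell in H137Y, with a median of -0.08. Of all genes 23.7% rose and 23.4% fell in P131S, and 21% and 20% in H137Y. Cyc1, cytochrome c1 of complex III, rose in P131S (0.55, adjusted p 1.01e-05), as did Cycs, cytochrome c itself (0.79, adjusted p 5.84e-06). Surf1, an assembly factor of complex IV, fell in both (-0.69 in P131S and -0.77 in H137Y). Coa3, which stabilises newly made Cox1, fell in H137Y (-1.23, adjusted p 9.13e-09) and was higher in P131S than in H137Y (1.11, adjusted p 1.77e-07).

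Of 17 regulators of mitochondrial gene expression tested in RNA, 5 rose and 6 fell in P131S, and 2 rose and 6 fell in H137Y, where 23.7% and 23.4% of all genes in P131S and 21% and 20% in H137Y did. Esrra, a nuclear receptor that drives respiratory genes, rose in P131S (0.49, adjusted p 0.000172) and was higher than in H137Y (0.40, adjusted p 0.00261). Ppargc1b, a coactivator of the same genes, rose in both (0.39 in P131S and 0.70 in H137Y). Myc fell in both (-0.97 and -0.48), as did Tefm, the elongation factor of mitochondrial transcription (-0.61 and -0.76).

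Related gene groups are set beside the members as counts, to be read against the same shares of all genes. In RNA 23.7% of all genes rose and 23.4% fell in P131S, and 21% and 20% in H137Y. Between P131S and H137Y 12.6% were higher and 12.6% lower. Of 47 nuclear complex I genes tested in RNA, 35 rose and 1 fell in P131S (median 0.32), and 6 rose and 12 fell in H137Y (median -0.04). Of 8 complex II genes 5 rose in P131S and 0 in H137Y. Of 78 mitochondrial ribosomal protein genes, 42 rose and 2 fell in P131S (median 0.23), and 11 rose and 16 fell in H137Y (median -0.02). Of 85 cytosolic ribosomal protein genes, 70 rose in P131S (median 0.28) and 64 in H137Y (median 0.28), and 2 were higher and 8 lower in P131S than in H137Y. That last comparison gave 40 complex I genes higher and 0 lower.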

How the data were processed

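RNA-seq and footprint libraries of 24 Ba/F3 clones were analysed (48 libraries). The authors deposited 1 table of estimated counts per Ensembl gene, not normalized, with decimal fractions. The submitters' processing notes name STAR 2.6.1d, Salmon 1.4.0, DESeq2 1.30 and GRCm38 without role or order; the feature counted and the handling of shared reads are not given in the sources used here.

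Estimated counts were rounded and tested with edgeR 4.0.16 (quasi-likelihood, robust, two-sided, R 4.3.3), after a filter of 10 counts in at least 3 libraries and 15 in total. All 8 genotypes entered 1 fit per assay, with trimmed mean scaling, and Benjamini-Hochberg adjusted p under 0.05 was called. Standard errors were derived from the F statistic. Translational efficiency was the assay by genotype interaction over 48 libraries, which the main fit treated as independent, without the pairing by clone. Clone numbers and the divided lysates pair the libraries: 24 same-clone correlations of deviations were 0.15 to 0.548, against -0.452 to -0.0238 between other clones of a genotype (12074 genes). Deviations from the mean of 3 clones sum to 0, so the negative range follows in part from the positive one. Scripts were tested on simulated data.

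Alternatives were limma voom (limma 3.58.1), DESeq2 1.42.0, size factors, no filter, 2 genotypes alone, each clone left out and a clone block. Depth limits the members with few counts, and calls rest on a spread shared across genes because each genotype has 3 clones. Members and lists were chosen with earlier results of these data known. Named are, per comparison and level, up to 4 called members of largest change in each direction, members called in translational efficiency, the 3 highest and lowest wild-type ratios, isoforms of restricted expression, F1 and subunit c genes, and members apart in both Rps15 genotypes; other names were chosen after their values were seen. Protein sequences and footprint density per codon, which were planned, are not analysed here.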

Additional observations from a re-analysis of the deposited data

Results flagged for a closer look

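The test of the difference between the Rps15 genotypes called 41 members in RNA and 6 in footprints. A closer look is given to those among them whose change against WT was at least 0.1 on the log2 scale in both genotypes and opposite in sign. The differences, P131S minus H137Y, are on the log2 scale, with edgeR adjusted p. In RNA they were 0.41 for Uqcrb (0.28 against WT in P131S and -0.13 in H137Y, adjusted p 0.00784), 0.70 for Uqcrq (0.58 and -0.12, adjusted p 5.58e-06) and 0.61 for Cox7a2 (0.37 and -0.24, adjusted p 0.000348). They were 0.42 for Atp5c1 (0.25 and -0.17, adjusted p 9.24e-05) and 0.74 for Atp5k (0.52 and -0.22, adjusted p 0.00177). In footprints the difference was 1.52 for Cox17 (0.65 and -0.87, adjusted p 0.00245). Of these only Atp5c1 was called against WT in both genotypes at that level, and its H137Y call was lost in 8 of 11 alternatives. With only P131S and H137Y in the edgeR fit, Uqcrq RNA was the only one of these differences still called (0.69, adjusted p 0.0164). The RNA of Cox7a2 in H137Y ran from 119 to 183 CPM and that of Atp5k from 71.2 to 142 CPM, wider than in WT (170.1 to 188 and 113 to 134 CPM). The lowest H137Y clone in both was clone 6.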

How the results depend on the processing

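Counts of called members depended most on which genotypes shared the fit. Between P131S and H137Y the fit to those 2 genotypes alone called 2 in RNA (41 with all), 0 in footprints (6 with all), and against WT 12 in P131S footprints (19). These fits called 3.13%, 0.243% and 15.7% of all genes, in either direction as in the shares that follow. Such fits called 15 in Rpl5+/-, 1 in Rpl11+/-, 5 in Rpl22-/- and 16 in Rpl10 R98S RNA (0, 3, 0 and 0 with all). The shares of all genes were 15.8%, 7.12%, 12% and 35.4%. In R98S footprints 3 were called (0 with all), with 4.88% of all genes. In translational efficiency they called 2 in R98S, 0 in P131S and 0 in H137Y (0, 1 and 4 with all). The shares of all genes there were 1.18%, 2.84% and 1.87%. DESeq2 called 2, 6 and 3 members in Rpl5+/-, Rpl11+/- and Rpl22-/- RNA, with 3.02%, 14.9% and 7.05% of all genes. In footprints it called 2 in Rpl22+/-, 5 in R98S, 11 in H137Y and 11 between P131S and H137Y. The shares of all genes there were 2.5%, 4.55%, 15.8% and 8.07%. In translational efficiency DESeq2 called 1 in R98S, 2 in P131S and 3 between P131S and H137Y, where limma voom called 1. Of all genes DESeq2 called 0.996%, 5.52% and 1.89%, and limma voom 0.604%. Without a filter 0 were called in Rpl11+/- RNA and 1 in H137Y translational efficiency, with 5.56% and 0.816% of all genes. The paired fit with the clone as replicate block applied to translational efficiency. It called 1 member in R98S, 2 in P131S and 2 between P131S and H137Y, and changed no other count by over 1.5 times. Of all genes it called 0.471%, 4.86% and 0.936% in these comparisons.

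Leaving out each clone in turn gave 38 to 43 members in P131S RNA, 5 to 14 in H137Y (14 without clone 6), 28 to 39 between them and 0 to 3 in Rpl11+/-. The shares of all genes were 38.4% to 45.8%, 33.1% to 41.4%, 17.5% to 27.8% and 4.58% to 16.7%. In footprints it gave 10 to 21 in P131S, 3 to 9 in H137Y, 3 to 9 between them and 0 to 1 in Rpl22+/-. Here the shares were 9.37% to 15.6%, 6.4% to 8.44%, 1.91% to 4.79% and 0.0293% to 1.47%. In translational efficiency it gave 0 to 1 in P131S, 1 to 3 in H137Y and 0 to 1 between them. For this level the shares were 1.26% to 2.44%, 1.07% to 2.18% and 0.169% to 0.823%. The members' median in P131S RNA stayed between 0.33 and 0.44 in those fits. In H137Y it ran from -0.03 to 0.08. None of the 37 named calls changed sign under any alternative run, but all runs used the same clones and the calls were picked for their size. Of the 37, 20 were lost in fits to 2 genotypes alone, 10 without the filter and 2 with other size factors. With limma voom and DESeq2 0 were lost. Runs with a clone left out lost the call in 60 of 222 cases. Low footprint counts limit Atp5g2 (mean 0.134 CPM in WT) and the restricted isoforms most. Next lowest in WT footprints were Cox11 (6.98 CPM) and Cox17 (10.1 CPM), while Cox7a2l was at 24 CPM. The cause of these changes was not tested.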
